A study of Arabidopsis thaliana with 2 samples.

Results

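The SAUR (SMALL AUXIN UP RNA) genes of Arabidopsis were examined in 2 maps of open chromatin. Members were the protein-coding genes of chromosomes 1 to 5 whose symbol starts with SAUR or whose product is named a SAUR-like auxin-responsive protein in the RefSeq annotation of TAIR10.1, which gave 79 of 27444 genes. The product name selected 78 of them and the symbol selected 16. A member was called tandem when another member lay within 5 kb of it, and single otherwise. This gave 36 tandem members in 11 arrays and 43 single members. The locus AT5G01830 was selected by its symbol SAUR21 alone, its product being an ARM repeat protein. It is called here by its locus name, as is AT1G29490, and SAUR21 stands for AT5G18030.

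The study built MH-seq libraries, in which fixed nuclei are lightly digested with micrococcal nuclease (MNase) and the short fragments released are sequenced, and called MNase hypersensitive sites (MHSs) where reads pile up. The data are the MHS lists of 2 libraries, replicate 1 and replicate 2, of whole seedlings of the wild-type ecotype Columbia (Col-0), 2 weeks old, with no mutation or treatment named in the labels, grown in long days on MS medium. Only the library of replicate 2 carries a replicate number in its label. There is 1 group, so no test between conditions was possible. All comparisons below are descriptions, and the spread between the libraries is their only replicate error. Both libraries score the same genes, so this spread does not cover differences among genes. The lists hold 70046 MHSs for replicate 1 and 49934 for replicate 2, with positions only, so the depth behind a single MHS is unknown. The paper reports more chloroplast reads and a higher background in its second dataset, with a smaller fraction of reads in peaks. The libraries are therefore not of equal quality, and the part of this in their differences was not tested. MHSs come from all cells of the seedling together, so a site open in few cells and a site weakly open in many cannot be told apart, and neither hormone response nor expression was measured here.

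SAUR genes encode small proteins without a known enzymatic activity, many of which are made within minutes of auxin treatment. In the best studied route, auxin is perceived by TIR1/AFB receptors, auxin response factors then switch on SAUR genes, and SAUR proteins inhibit phosphatases of the PP2C.D group, which keeps plasma membrane proton pumps active and lets cells expand. Many SAUR genes lack introns and stand in tandem arrays that arose by duplication. In this annotation 72 of the 79 members had 1 exon, and the median gene was 813 bp long against 2078 bp for all protein-coding genes. Another annotated gene lay within 1 kb upstream of 33 members, of which 23 were tandem and 10 single.

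Stretches covered by an MHS in both replicates and lying outside annotated genes are printed for 5 members in TAIR10.1 (RefSeq), read 5′ to 3′ along the gene. They were chosen after the values were seen, as a divergent promoter with full coverage, a pair of close relatives, the gene with most covered sequence in replicate 2 and a distal site. Capitals mark a searched motif, which is the auxin response element TGTCTC or the TATA box TATAAA, written as its reverse complement where it lies on the opposite strand. The run of SAUR15 (AT4G38850), chr4:18125757-18126056 (plus strand), covers the 300 bases before its transcription start site (TSS), out of a shared run of 497 bp.
SAUR15: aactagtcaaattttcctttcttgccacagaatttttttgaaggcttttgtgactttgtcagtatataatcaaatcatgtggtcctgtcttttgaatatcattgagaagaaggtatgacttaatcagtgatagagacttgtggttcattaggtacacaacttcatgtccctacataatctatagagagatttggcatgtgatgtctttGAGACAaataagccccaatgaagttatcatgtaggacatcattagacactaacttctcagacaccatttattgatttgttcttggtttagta
The runs of SAUR21 (AT5G18030), chr5:5968104-5968205 (plus strand), and SAUR24 (AT5G18080), chr5:5983288-5983473 (plus strand), lie 248 to 147 bp and 395 to 210 bp before the TSS. Neither holds a searched motif.
SAUR21: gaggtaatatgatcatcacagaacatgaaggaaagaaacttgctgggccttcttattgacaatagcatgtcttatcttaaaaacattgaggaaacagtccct
SAUR24: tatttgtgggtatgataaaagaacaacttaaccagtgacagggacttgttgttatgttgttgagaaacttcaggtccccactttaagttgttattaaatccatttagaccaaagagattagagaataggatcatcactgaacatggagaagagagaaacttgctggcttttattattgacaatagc
The run of SAUR36 (AT2G45210), chr2:18641306-18641562 (plus strand), reaches from 257 bp before the TSS up to it.
SAUR36: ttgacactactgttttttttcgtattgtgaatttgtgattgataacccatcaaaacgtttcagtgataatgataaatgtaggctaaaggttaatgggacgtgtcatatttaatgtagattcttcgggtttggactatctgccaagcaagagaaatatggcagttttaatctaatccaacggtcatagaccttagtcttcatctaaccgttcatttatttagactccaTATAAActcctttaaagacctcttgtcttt
The run of SAUR9 (AT4G36110), chr4:17089112-17089245 (plus strand), lies 822 to 689 bp before the TSS and holds 1 auxin response element and 3 TATA box words.
SAUR9: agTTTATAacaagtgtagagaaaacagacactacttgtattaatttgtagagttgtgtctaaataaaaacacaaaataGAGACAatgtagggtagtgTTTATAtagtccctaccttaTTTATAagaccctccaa
The A/T content of these 5 runs lay between 62.7% in SAUR21 and 69.4% in SAUR9.

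An MHS was assigned to a region when its midpoint fell there. Most SAUR genes had an MHS within 1 kb upstream of the TSS, at about the rate of other genes. An upstream MHS was found for 59 members in replicate 1 (74.7%, exact 95% interval 63.6 to 83.8), beside 75.1% of all protein-coding genes. In replicate 2 it was found for 51 members (64.6%), beside 64.1% of all genes. In both replicates 45 members had an upstream MHS (57.0%, 45.3 to 68.1), beside 60.9% of all genes. These exact (Clopper-Pearson) intervals cover counting error only, and members of an array are not independent. The genome-wide shares for replicate 1 and for both replicates lay inside the members' intervals.

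Inside the gene, MHSs were found in both replicates for 17 members (21.5%, 13.1 to 32.2), beside 35.7% of all genes, which are longer. SAUR36, SAUR41, SAUR77, SAUR78, SAUR9, SAUR64, SAUR50, SAUR53 and SAUR72 were among these 17. Within 1 kb downstream of the transcription termination site (TTS), 39 members had an MHS in both replicates (49.4%, 37.9 to 60.9), beside 39.5% of all genes. That interval holds the genome-wide share. In each library alone the share was 63.3% (51.7 to 73.9) in replicate 1, beside 52.7% of all genes, and 57.0% (45.3 to 68.1) in replicate 2, beside 43.2%, which lies below that interval. With each MHS given only to the closest gene start, 35.4% and 29.1% of members had a downstream MHS. The share of all genes was not computed under that assignment, so these 2 values cannot be set against the genome-wide shares above. Any MHS between 1 kb upstream and 1 kb downstream, called the window from here on, was found in both replicates for 64 members (81.0%, 70.6 to 89.0), beside 84% of all genes. At least 2 upstream MHSs in both replicates were found for 12 members (15.2%), beside 16.8% of all genes. A base covered by an MHS within 200 bp upstream of the TSS, in both replicates, was found for 38 members (48.1%, 36.7 to 59.6), beside 58.8% of all genes.

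The window of 5 members held no MHS in either replicate (6.33%, 2.09 to 14.2), beside 8.07% of all genes. These were SAUR38, SAUR42, SAUR47, SAUR17 and SAUR37, all single. Repeated 31-base words, described further on, made up at most 0.0784% of their windows. In replicate 1 the tandem members SAUR73 and SAUR26 also had none, and in replicate 2 the further members without an MHS included SAUR20, SAUR22 and SAUR23.

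The 36 tandem and 43 single members differed in the share with an upstream MHS, but with opposite signs in the libraries. Where covered sequence lay upstream differed in the same direction in both. In replicate 1, 26 tandem members (72.2%, 54.8 to 85.8) and 33 single members (76.7%, 61.4 to 88.2) had an upstream MHS. In replicate 2, 26 tandem members (72.2%) and 25 single members (58.1%, 42.1 to 73.0) had it. The difference, tandem minus single, was -4.52 percentage points in replicate 1 and 14.1 in replicate 2, so the libraries disagree in its sign and no direction is given. With flanks of 500 bp in place of 1 kb it was 13.6 and 29.9 percentage points. In both replicates 20 tandem (55.6%) and 25 single members (58.1%) had an upstream MHS.

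Close to the TSS the shares lay farther apart, with intervals that still overlap. A covered base within 200 bp upstream in both replicates was found for 22 of 36 tandem members (61.1%, 43.5 to 76.9) and for 16 of 43 single members (37.2%, 23.0 to 53.3). Between 500 and 200 bp upstream, 32.3% (replicate 1) and 38.1% (replicate 2) of the sequence of tandem members was inside an MHS, against 15.8% and 15.3% in single members. From 1000 to 500 bp upstream the order was the opposite, with 9.94% and 7.73% in tandem members and 23.2% and 21.5% in single members. Over all protein-coding genes the corresponding shares were 25.2% and 19.3% from 500 to 200 bp, and 16.8% and 13.5% from 1000 to 500 bp. In both stretches the gap between tandem and single members was larger than the difference between the libraries. That difference does not measure the spread among genes, as both libraries score the same genes. Tandem members also share MHSs, as 17 of their 80 MHSs in replicate 1 and 14 of 58 in replicate 2 lay in windows of more than 1 member. In a short divergent spacer, an MHS near the TSS of a gene lies farther upstream of its neighbour. In the last 200 bp before the TSS, the covered share was 41.6% and 51.1% in tandem members and 38.5% and 25.2% in single members, so there the gap was large in replicate 2 only. Neighbouring genes lie closer to tandem members, and the part of this spacing in the distances was not tested.

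**Figure D1:**
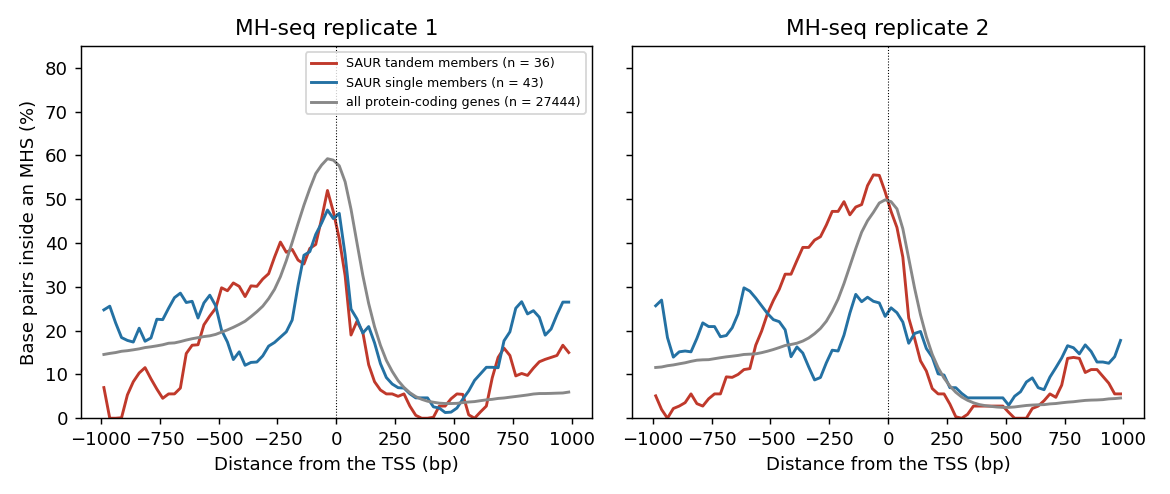
Percent of base pairs inside an MHS in 25-bp bins by distance from the TSS, in replicate 1 (left) and replicate 2 (right), for tandem members, single members and all protein-coding genes. Between 500 and 200 bp upstream the tandem line lies above the single line in both libraries (32.3% and 38.1% against 15.8% and 15.3% of the stretch), and from 1000 to 500 bp it averages below it (9.94% and 7.73% against 23.2% and 21.5%).

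The profile had its highest bin 50 to 25 bp before the TSS in replicate 1, at 52.0% in tandem members, 47.5% in single members and 59.3% over all genes. In replicate 2 the highest bin of tandem members lay 75 to 50 bp before the TSS (55.6%), while that of single members lay 625 to 600 bp before it (29.8%). In the 200 bp after the TTS, 19.5% and 11.9% of the sequence was covered in tandem members and 32.4% and 21.3% in single members, beside 23.2% and 19.1% over all genes. At least 2 upstream MHSs in both replicates were found for 1 tandem member (2.78%, 0.0703 to 14.5) and 11 single members (25.6%, 13.5 to 41.2). No window of a tandem member was empty in both replicates, while 5 of the single members' were (11.6%, 3.89 to 25.1). An MHS in the gene body in both replicates was found for 5 tandem (13.9%) and 12 single members (27.9%), and an MHS downstream for 16 tandem (44.4%) and 23 single members (53.5%), with intervals that overlap.

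**Figure D2:**
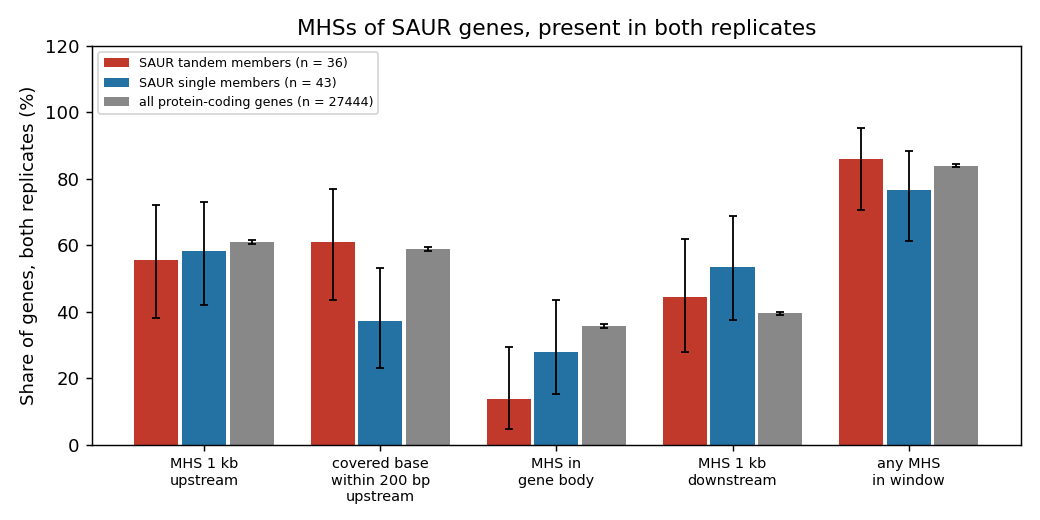
Percent of genes with the named feature in both replicates, for tandem members, single members and all protein-coding genes. Bars show the share and whiskers the exact 95% interval. Tandem members reach 61.1% and single members 37.2% for a covered base within 200 bp upstream, with intervals that overlap.

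The mean number of MHSs in a member's window was 3.19 in replicate 1 and 2.30 in replicate 2, beside 2.96 and 2.16 over all genes. Tandem windows held 2.69 and 2.00 MHSs and single windows 3.60 and 2.56. The difference, tandem minus single, was -0.910 in replicate 1 and -0.558 in replicate 2, with a mean of -0.73 ± 0.25 (SD, n = 2 libraries). This SD does not cover the spread among genes. The SD across genes was 1.85 MHSs in tandem and 2.53 in single windows in replicate 1, and 1.37 and 2.33 in replicate 2. An MHS in the windows of more than 1 member was counted for each. Without the 10 members whose windows hold over 10% repeated words it was -0.939 in replicate 1 and -0.397 in replicate 2. If tandem status was also set anew among the remaining 69 members, which left 23 tandem, it was -0.870 and 0.0217. Members' windows are short because their genes are short, and the mean share of a window inside an MHS was 18.2% and 16.9%, beside 14.2% and 11.6% over all genes. In base pairs the members had 537 bp and 498 bp covered, beside 599 bp and 491 bp. Tandem members had 432 bp and 464 bp covered and single members 625 bp and 526 bp.

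Counted once each, 235 MHSs of replicate 1 and 168 of replicate 2 had their midpoint in a member's window. Their median length was 115 bp in replicate 1 and 168.5 bp in replicate 2, against 146 bp and 187 bp over all MHSs. MHSs of at most 100 bp made up 41.7% and 20.2% of them, against 36.4% and 13.4% of all. Of the members' MHSs, 59.1% (52.6 to 65.5) in replicate 1 and 78.6% (71.6 to 84.5) in replicate 2 overlapped an MHS of the other library, against 61.9% and 86.9% of all MHSs. The longer ones recurred more often, with 111 of 137 over 100 bp shared in replicate 1 against 28 of 98 at most 100 bp. In replicate 2 the same counts were 116 of 134 and 16 of 34. The same order held over all MHSs. There the counts were 36686 of 44537 and 6676 of 25509 in replicate 1, and 39392 of 43256 and 4009 of 6678 in replicate 2. For tandem members the shared part was 52.5% of 80 MHSs and 70.7% of 58 MHSs, and for single members 62.6% of 155 and 82.7% of 110.

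Covered base pairs of a window in replicate 1 followed those in replicate 2, with Pearson's r = 0.83 and Spearman's rho = 0.77 across the 79 members, as a description across genes that share libraries. For all 27444 genes both were 0.89. Covered base pairs differed between the libraries by a median of 163 bp per member. An upstream MHS in replicate 1 only was found for 14 members (17.7%, 10.0 to 27.9), beside 14.2% of all genes. Of these, 6 were tandem and 8 single, among them SAUR19, SAUR20, SAUR22, SAUR30, SAUR53, SAUR64 and SAUR66. In replicate 2 only it was found for 6 (7.59%, 2.84 to 15.8), beside 3.25% of all genes. Both intervals hold the genome-wide share. The 6 were all tandem, namely SAUR62, SAUR68, SAUR73, SAUR26, SAUR50 and SAUR2. SAUR62 and SAUR50 also had an MHS reaching upstream in replicate 1, counted in the gene body. Its midpoint lay 2 bp and 30 bp past the TSS. In replicate 2 the same held for SAUR66 and SAUR64, with the midpoint 51 bp and 23 bp past the TSS. These MHSs of SAUR62, SAUR50, SAUR66 and SAUR64 overlapped MHSs of the other library. The 2 upstream MHSs of SAUR64 in replicate 1 did not recur. SAUR6 had 130 bp covered in replicate 1 and 715 bp in replicate 2, and SAUR30 had 921 bp and 148 bp. None of the 3 upstream MHSs of SAUR30 in replicate 1 recurred.

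**Figure D3:**
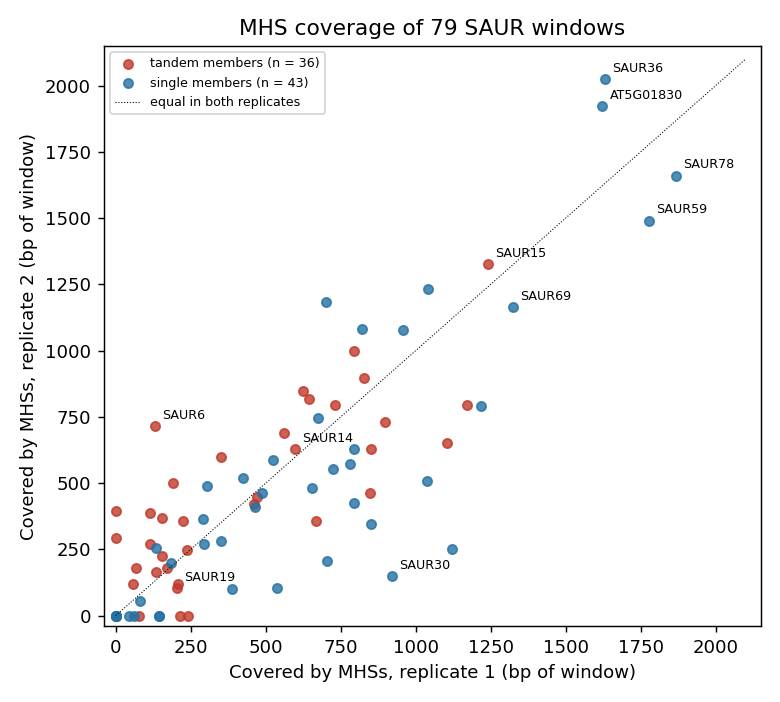
Base pairs of each member's window inside an MHS in replicate 1 (horizontal) and replicate 2 (vertical), with tandem and single members as separate colours and a dotted line of equality. SAUR36, AT5G01830, SAUR78 and SAUR59 lie above 1400 bp in both libraries, while SAUR6 and SAUR30 lie far from the line.

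The 5 members with most covered sequence in each library were single, apart from SAUR15 in replicate 2. Of all 79 members 43 were single. Among the first 10, SAUR15, SAUR49 and SAUR16 were tandem in replicate 1, and SAUR15 alone in replicate 2. SAUR78 (AT1G72430), of the SAUR76 to SAUR78 group linked to ethylene receptors, had 1867 bp covered in replicate 1 and 1661 bp in replicate 2. SAUR59 (AT3G60690) had 1777 bp and 1491 bp. SAUR36, which promotes leaf senescence, had 1631 bp in 9 MHSs in replicate 1 and 2024 bp in 4 MHSs in replicate 2, 63.7% of its window. Its printed promoter run lies inside an MHS of 322 bp in replicate 1 and another of 325 bp in replicate 2 that both cross the TSS. AT5G01830 had 1623 bp and 1922 bp and has the longest gene of the members, 2865 bp. SAUR69 had 1326 bp and 1163 bp, most of it downstream (946 bp and 956 bp). Among tandem members SAUR15 had most, with 1241 bp and 1326 bp. These values rank the same genes in both libraries, as the first 4 of replicate 1 were also the first 4 of replicate 2.

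The arrays differed widely from each other. On chromosome 4, SAUR13, SAUR14, SAUR15 and SAUR16 lie between 18121526 and 18131284. This array held 13 MHSs in replicate 1, 9 of them shared, and 8 in replicate 2, all shared, which covered 27.1% and 25.5% of the array with its 1-kb flanks. All 4 members had an upstream MHS in both replicates. SAUR15, also known as SAUR-AC1, was among the earliest cloned SAUR genes of Arabidopsis, and SAUR14 and SAUR16 respond to light in cotyledons. SAUR14 and SAUR15 are transcribed away from each other from a spacer of 497 bp, and 100% of it lay inside a single MHS in each library, 598 bp from 18125497 to 18126094 in replicate 1 and 627 bp from 18125482 to 18126108 in replicate 2. That MHS is the upstream MHS of both genes, and the capitals in the printed SAUR15 run lie in it, 92 bp before the TSS of SAUR15. SAUR13 had 3 upstream MHSs in replicate 1 and a single one of 849 bp, the longest of any member, in replicate 2. The spacer of 2967 bp between the ends of SAUR13 and SAUR14 held none in either library.

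SAUR1 to SAUR5, also on chromosome 4 (16591179 to 16599568), held 12 and 11 MHSs, which covered 28.3% and 25.6%, of which 4 and 6 were shared. All but SAUR2 had an upstream MHS in both replicates. The promoter MHS of SAUR1 was 695 bp long in replicate 1 and 809 bp in replicate 2. SAUR2 had 0 bp covered upstream in replicate 1 and 80 bp in replicate 2. The nearby pair SAUR49 and SAUR50 held 9 and 12 MHSs. SAUR50, a gene that acts in cotyledon opening in light, had 643 bp and 819 bp covered. The pair SAUR51 and SAUR52 held 10 and 13 MHSs, and SAUR70 and SAUR76 held 8 and 5, with an upstream MHS in both replicates for all 4 of these genes.

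The SAUR63 subfamily, whose products promote elongation of hypocotyls and stamen filaments, lies mostly in a pair of arrays on chromosome 1. SAUR61 to SAUR65 (10301377 to 10308246) held 13 MHSs in replicate 1 and 5 in replicate 2, over 16.7% and 15.5% of the array. Counted by midpoint, SAUR61, SAUR63 and SAUR65 had an upstream MHS in both replicates, SAUR62 in replicate 2 only and SAUR64 in replicate 1 only. AT1G29490, SAUR66 and SAUR68 (10319732 to 10323239) held 2 MHSs in each, over 3.09% and 7.06%. By midpoint none of the 3 had an upstream MHS in both replicates. An MHS crossing the TSS of SAUR66 did overlap between the libraries, with 63 bp and 84 bp of it upstream. The annotation gives SAUR67 only as another name of the gene called SAUR68 here. Over the 9 members of the subfamily, including SAUR75, 3 had an upstream MHS in both replicates and the median window had 145 bp and 357 bp covered.

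The SAUR26 subfamily, whose members take part in growth at warm temperature, lies, apart from SAUR25, in an array on chromosome 3 (976715 to 983768) that also holds SAUR73. SAUR29, SAUR28, SAUR27, SAUR73 and SAUR26 held 3 MHSs in replicate 1 and 4 in replicate 2, over 6.90% and 11.8% of the array. SAUR28 and SAUR27 diverge from a spacer of 509 bp with 154 bp and 158 bp covered, so both had an upstream MHS in both libraries, but the MHSs of the libraries did not overlap there. SAUR73 and SAUR26 diverge from a spacer of 469 bp, of which 0 bp was covered in replicate 1 and 294 bp in replicate 2. SAUR29 had no upstream MHS in either library but 428 bp and 437 bp covered downstream. On chromosome 2, SAUR7, SAUR6 and SAUR12 (9083906 to 9090052) held 6 MHSs in each library. SAUR6 had an upstream MHS in both, 66 bp long in replicate 1 and 463 bp in replicate 2. SAUR7 and SAUR6 overlap by 176 bp on the same strand, so their MHSs cannot be told apart there.

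**Figure D4:**
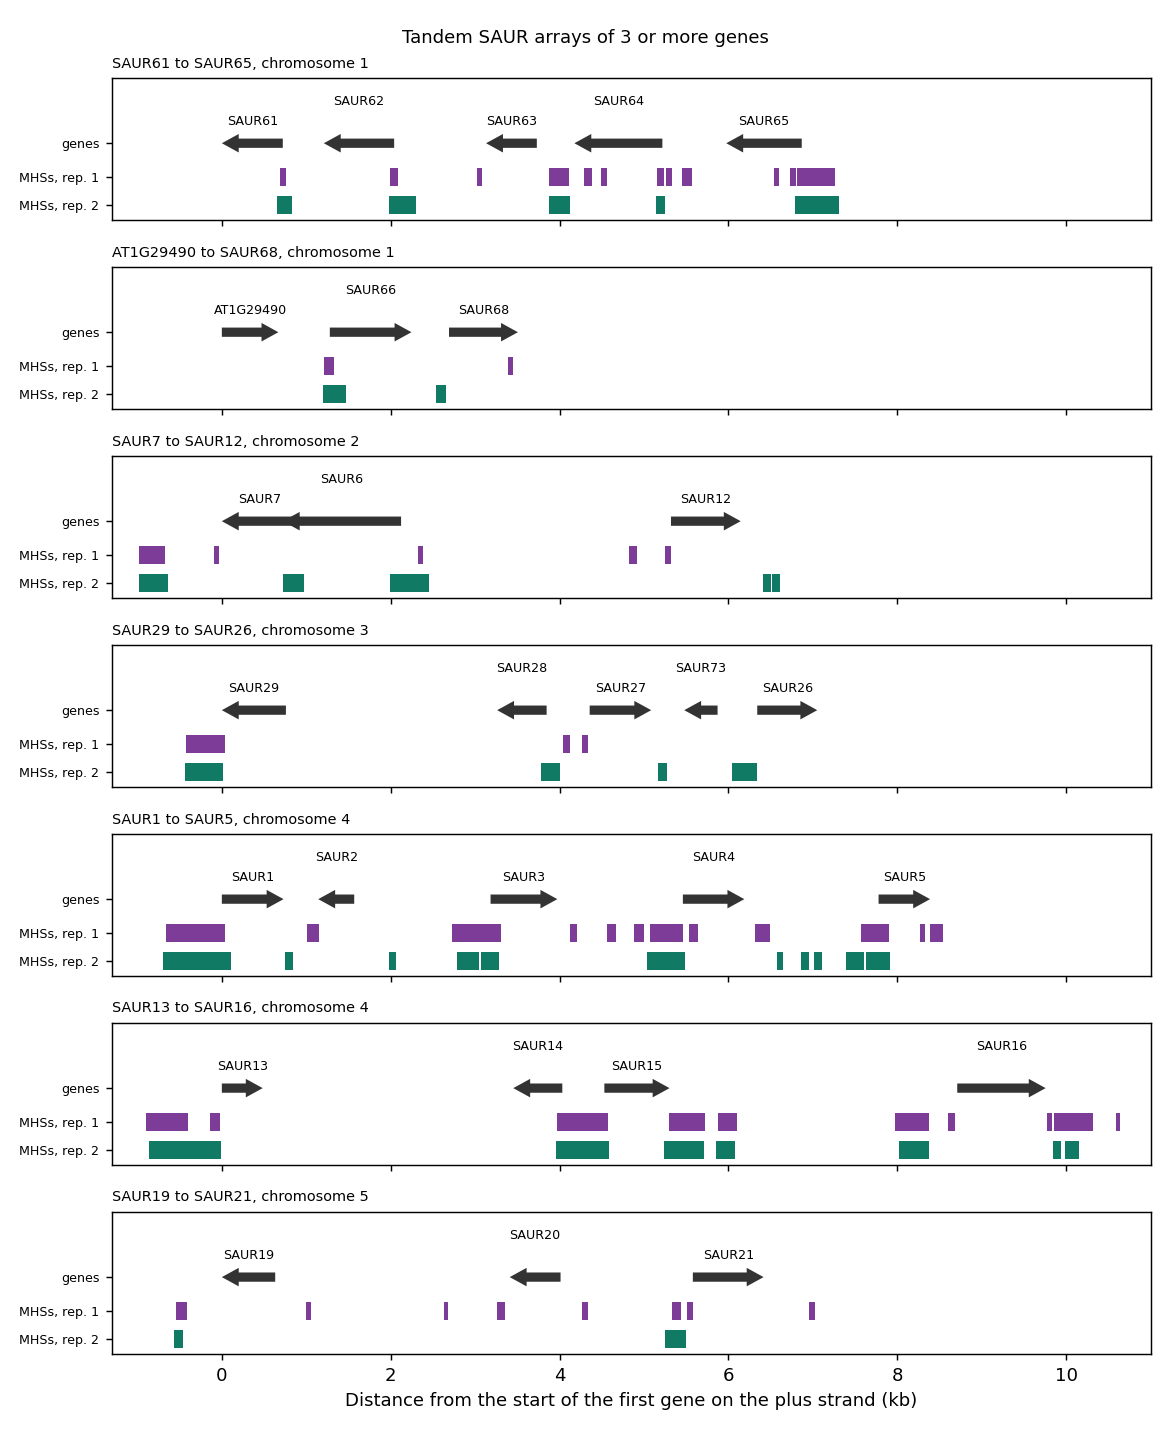
Maps of the 7 arrays of 3 or more members, to scale, with distance in kb from the start of the first gene. Arrows are genes pointing in the direction of transcription, and bars are the MHSs counted for them in replicate 1 (upper) and replicate 2 (lower). The spacer between SAUR14 and SAUR15 is filled by 1 MHS in each library, while SAUR19 to SAUR21 show 8 MHSs in replicate 1 and 2 in replicate 2.

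The SAUR19 subfamily (SAUR19 to SAUR24), from which inhibition of PP2C.D phosphatases was first described, had little covered sequence, and the libraries differed. SAUR19, SAUR20 and SAUR21 lie on chromosome 5 from 5962773 to 5969190 and held 8 MHSs in replicate 1 and 2 in replicate 2, over 7.80% and 4.18%. SAUR22 and SAUR23 (5974341 to 5976589) held 2 in replicate 1 and 0 in replicate 2. Their divergent spacer of 692 bp held none in either library, and their coding sequences were 93.0% identical. SAUR24 counts as single. Of the 6 genes, 5 had an upstream MHS in replicate 1 and 2 in replicate 2. SAUR21 and SAUR24 had it in both, and the printed runs are these sites. The median window had 227 bp covered in replicate 1 (79 to 464 bp) and 51.5 bp in replicate 2 (0 to 411 bp).

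Since the authors filtered reads on mapping quality, the repeated sequence of each member's window was measured. Repeated words are words of 31 bases with a further copy elsewhere in the genome, on either strand. Over 10% of the window was repeated in 9 tandem members and 1 single member, with 23.5% in SAUR21 and 21.6% in SAUR23. Each base counted once, members' windows held 5296 bp of repeated sequence, of which 1.70% was inside an MHS in replicate 1 and 1.62% in replicate 2. Of the other sequence, 20.0% and 18.0% was. Reads of low mapping quality were removed, so a low share in repeated sequence was largely set in advance. The arrays SAUR19 to SAUR21 and SAUR22 to SAUR23 had 13.9% and 17.1% repeated words, SAUR61 to SAUR65 had 13.4% and AT1G29490 to SAUR68 had 11.4%, and the other arrays had at most 1.51%. The part of repeated sequence in the coverage of these 4 arrays was not tested. SAUR29 to SAUR26 had 6.90% and 11.8% covered with few repeated words.

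Spacers between neighbouring members of an array were compared by orientation, counting an MHS with its midpoint in the spacer. Of 7 divergent spacers, 5 held an MHS in replicate 1 and 6 in replicate 2. Of 11 spacers between genes in the same direction, 9 did in replicate 1 and 7 in replicate 2. Of 6 convergent spacers, 3 did in replicate 1 and 4 in replicate 2. By length, 20.2% and 25.1% of divergent spacers was covered, 21.2% and 20.1% of same-direction spacers and 11.5% and 19.1% of convergent spacers. With so few spacers no order is read from this.

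Among well known single members, SAUR9 binds PP2C.D phosphatases as SAUR19 does. It had 5 upstream MHSs in replicate 1 and 2 in replicate 2, with 1218 bp and 791 bp of the window covered, and its printed run is the part farthest from the TSS. SAUR10, which promotes growth of stems and leaves, had 5 and 2 upstream MHSs and 676 bp and 747 bp covered. SAUR32, which acts in the apical hook, had 1 upstream MHS in each library, with 793 bp and 425 bp covered. SAUR53 had 782 bp and 573 bp covered, but its 2 upstream MHSs were in replicate 1 only.

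In the SAUR41 subfamily, which promotes cell expansion, SAUR41, SAUR71 and SAUR72 had upstream MHSs in both replicates and SAUR40 in neither. SAUR71 had 820 bp and 1083 bp covered, SAUR72 had 957 bp and 1077 bp, SAUR41 had 655 bp and 483 bp and SAUR40 had 537 bp and 104 bp. Of the SAUR76 to SAUR78 group all 3 had an upstream MHS in both replicates. SAUR77 had 1042 bp and 1233 bp covered, and SAUR76, the tandem one, 209 bp and 120 bp. SAUR79 (AT2G35290) was not selected by the rule, as its product carries no SAUR name here.

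Short motifs were searched on both strands in the 1 kb upstream of each TSS, and a match is a description of letters only. The auxin response element TGTCTC occurred in 36 members (45.6%), beside 39.6% of all protein-coding genes. Of its 49 matches, each position counted once, 6 lay on bases covered in both replicates, beside 2322 of 13520 over all genes. The variant TGTCGG occurred in 14 members (17.7%), beside 14.6%. Within 250 bp upstream TGTCTC occurred in 7 members (8.86%), beside 10.9% of all genes. These 7 were tandem members, SAUR62, SAUR66, SAUR68, SAUR7, SAUR15, SAUR20 and SAUR22. Of their 10 matches 1, before SAUR15, lay on such bases, beside 1120 of 3187 over all genes. The matches of SAUR7 lie inside the body of the neighbouring gene SAUR6.

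The G-box CACGTG, a binding word of light-signalling bHLH and bZIP factors, occurred in 5 members (6.33%), beside 14.8% of all genes, and 0 of its 6 matches lay on bases covered in both replicates, beside 2357 of 4421 over all genes. The E-box CATATG occurred in 26 members (32.9%), beside 27.5%, and within 250 bp upstream in 15 members (19.0%), beside 7.12%. Of the 16 matches in that stretch, 2 lay on such bases, before SAUR49 and SAUR9, beside 692 of 1998 over all genes. The brassinosteroid words CGTGCG and CGTGTG occurred in 6 (7.59%) and 13 members (16.5%), beside 5.09% and 17.2%. The TATA box TATAAA occurred in 69 members (87.3%), beside 83.6%. Copies made by duplication share letters, so members are not independent here.

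Other genes of the route had upstream MHSs as follows, from lists of known loci. All 6 TIR1/AFB receptor genes and all 5 activating auxin response factors had an upstream MHS in both replicates, as did 7 of 9 PP2C.D phosphatases, 6 of 11 plasma membrane proton pumps and 6 of 7 GH3 genes, which conjugate auxin to amino acids. BZR1 and BES1, transcription factors of brassinosteroid response, had it in both replicates too. The background for these counts is the 60.9% of all genes given above, and for SAUR members it was 57.0%. In the 1 kb upstream SAUR members had a median of 191 bp covered in replicate 1 and 179 bp in replicate 2, beside 220 bp and 174 bp over all genes.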

How the data were processed

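The authors used Cutadapt to trim reads and Bowtie2 to align them to TAIR10, kept full-length alignments above a mapping quality limit and called MHSs per library with Jazz; deepTools is also named in the submitters' processing notes, and versions are not given in the sources used here. The deposited lists hold other values than counts, namely the start and end position of each MHS, with no score. List positions were taken to be 0-based and half-open, since 19 of 19 synthesised sequences of the study equalled the reference there, and are printed 1-based. The gene annotation was that of RefSeq for TAIR10.1. Analyses used Python 3.11.15, numpy 2.4.6 and scipy 1.17.1, with matplotlib 3.10.9 for figures, and 9 of 9 functions tested on simulated data gave the known answer.

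An MHS belonged to a region by its midpoint, and overlap of replicates needed at least 1 bp. Read depth was not analysed here. The members, gene lists, tests and alternatives were chosen with earlier results of these data known. Named members were every array of at least 3, the 5 with most covered base pairs per replicate, those without any MHS and a list of well known genes; other members named with a value were chosen after their values were seen. Alternatives changed assignment, flanks, MHS length, merging, member and tandem rules, repeats and library.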

Additional observations from a re-analysis of the deposited data

How the results depend on the processing

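Of 99 recomputed values of 7 results, 64 moved by less than 1 SD of the 2 libraries, 28 moved further and 7 changed sign. Part of the 64 was fixed by construction, so this count does not measure robustness. Leaving out 1 of the 2 libraries cannot move their mean by 1 SD. Assigning MHSs by any overlap leaves the covered sequence unchanged. Means of both libraries were 69.6% of members with an upstream MHS, 60.1% with a downstream MHS, 4.78 percentage points for tandem minus single members in the upstream share, 2.75 MHSs per window, -0.73 for tandem minus single members in that number, 17.6% of the window covered and 68.9% of MHSs overlapping the other library. In the same order, leaving out a replicate gave 64.6 to 74.7%, 57.0 to 63.3%, -4.52 to 14.1 points, 2.30 to 3.19, -0.910 to -0.558, 16.9 to 18.2% and 59.1 to 78.6%.

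The upstream share, tandem minus single, changed sign to -6.56 points with each MHS given to the closest gene start, to -3.88 with flanks of 2 kb, to -1.20 with MHSs of at least 100 bp, to -5.14 with MHSs shared by both replicates and to -30.9 over the 16 members chosen by symbol, and was 21.8 with flanks of 500 bp. The share of members with an upstream MHS was 57.6% with flanks of 500 bp, 85.4% with 2 kb, 57.6% with MHSs of at least 100 bp and 57.0% with shared MHSs. The downstream share was 47.5%, 79.1%, 50.6% and 43.7% in the same order, 32.3% with the closest start and, in an alternative chosen after seeing the data, 48.1% with flanks cut at the nearest gene. MHSs per window numbered 1.87, 4.39, 1.87 and 1.79 in that order and 2.11 with the closest start. Covered sequence was 13.0% of the window with the closest start, 18.7% with flanks of 500 bp, 15.2% with at least 100 bp, 14.2% with shared MHSs, 18.9% without repeated windows and 19.0% with flanks cut at the nearest gene. MHSs per window, tandem minus single, was -0.164 with flanks of 500 bp, -0.340 with MHSs at most 50 bp apart merged and -3.35 by symbol. Setting tandem status anew among the members that remain, chosen after seeing the data, gave -0.424 without repeated windows and -2.81 by symbol, and -37.5 points by symbol for the upstream share. With a reciprocal overlap of at least 50%, 40.8% of MHSs overlapped. The cause of these changes was not tested beyond their construction. Leaving out AT5G01830, also chosen after seeing the data, moved no result by 1 SD.

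No paired analysis was possible because there is 1 group. Read depth per MHS was not analysed here, so an absent MHS means that none was listed.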

Other observations

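Words of 8 bases were counted, on both strands, in the 500 bp upstream of each TSS, and those held by at least 12 members were ranked by their share in members over their share in all protein-coding genes. The ranking was made after the values were seen, so no test applies, and duplicated promoters share letters. CATGTGAA ranked highest. It occurred in 15 members (19.0%), of which 10 were tandem and 5 single, beside 2.82% of all genes, and 4 of its 16 copies, each position counted once, lay on bases covered in both replicates. SAUR19, SAUR21, SAUR22, SAUR27, SAUR28 and SAUR16 held it. TCTTCTCA came next, in 15 members (19.0%) beside 4.18% of all genes, with 12 tandem and 3 single members and 7 of its 15 copies on such bases. SAUR14, SAUR15, SAUR24, SAUR61, SAUR63, SAUR64, SAUR65, SAUR66 and SAUR68 were among these members. For neither word was the share of copies on covered bases computed over all genes.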
